A study of Mus musculus with 15 samples.

Results

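The 34 genes described here encode lysosomal enzymes and lysosomal membrane proteins. They were chosen by name, from a list of proteins that work in the lumen or the membrane of the lysosome, out of the 30386 genes in a table of read counts from mouse brain. The choice was made with earlier results of these data known. All 34 have a line in the table, and 33 had enough reads to be tested for differences between groups. They divide by role into 8 proteases, 11 glycosidases, sulfatases and lipid hydrolases, 4 genes for a sphingolipid activator, cholesterol export and progranulin, 7 membrane proteins and 4 genes of the proton pump.

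Expression was measured with QuantSeq, which sequences messages next to their poly(A) tail, so that a count does not in principle depend on transcript length and levels can be set side by side between genes. The 15 libraries form 3 groups of 5. Het_B12 mice carried 1 mutant copy of Tbx1 (Tbx1+/-) and received vitamin B12 at 20 mg/kg in phosphate-buffered saline (PBS). Het_PBS mice had the same genotype and received PBS alone, and WT_PBS mice were wild type at Tbx1 and received PBS alone. All 3 groups were injected into the peritoneum 2 times per week for 4 weeks. The labels give the mice's age as 4 weeks, taken here as the age at the start of treatment. Tbx1 encodes a T-box transcription factor of the region deleted in DiGeorge syndrome. The sources used here do not give the structure of the mutant allele, the strain background or the sex of the mice, and no wild-type group with vitamin B12 was analysed here. The tissue is a brain hemisphere in the sample labels and whole brain in the design text.

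Lysosomes are acidic compartments in which cells break down protein, glycans and lipids delivered by endocytosis, phagocytosis and autophagy. A proton-pumping ATPase acidifies the lumen, soluble hydrolases do the digestion, activator and transfer proteins present lipids to the enzymes or carry them out, and heavily glycosylated membrane proteins line the inner face and hold channels and transporters. Inherited loss of many of these genes causes storage disease of the brain, in which neurons fill with undigested material. Microglia, the phagocytes of the brain, are particularly rich in lysosomal proteases. Vitamin B12 itself enters cells bound to a carrier protein that is digested in lysosomes, and leaves the lysosome through a dedicated transporter.

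Total counts ran from 1683258 to 2746122 per library, and the detection floor of 3 reads came to 1.02 to 1.79 CPM (read counts scaled to a common library size, here with TMM normalisation factors). Tbx1 itself had 1 read in Het_B12 (replicate 4), 3 in Het_PBS (all in replicate 1) and 3 in WT_PBS (all in replicate 4), too few to check the genotype labels. On the first principal component, which held 18% of the variance, the Het_B12 libraries took values of 19.1 to 32.8, WT_PBS 3 a value of 17.8, and the remaining PBS libraries -22.4 to -10.2. Het_PBS 5 stood apart on the second component at -43.5. Het_B12 1 and Het_PBS 5 carry the same animal number in the labels, 210. The chi-square per degree of freedom between their counts was 10.7, and between the 30 pairs within groups it was 3.11 to 8.53. Gm42418, where ribosomal RNA reads tend to map, took 3.31% to 6.28% of counts in Het_B12, 6.47% to 10.3% in Het_PBS and 10.6% to 14.9% in WT_PBS. These ranges do not overlap, so differences between the groups cannot be told apart from differences that go with this share. Within each group, the labels give every library a different animal number. No label says more on whether each library is a different mouse, so p-values cover the spread from library to library, whose technical part is not known. Cell type markers also differed: 6 of 19 microglial markers and 10 of 16 astrocyte markers were lower in Het_B12 than in Het_PBS. Of 11 endothelial markers tested, 6 were higher. The 1 endothelial marker below 0 stood at a log2 fold change of -1.48 without passing, and its groups did not overlap. Of all genes tested, 3.79% were lower and 3.47% higher. In whole tissue, fewer cells of a type and less RNA per cell cannot be told apart.

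The lysosomal genes together took 0.436% of the reads. Averaged over the 15 libraries, 11 of the 33 tested genes were at 100 CPM or more, 12 lay from 20 to under 100 CPM and 10 were under 20 CPM. Atp6v1a, the catalytic A subunit of the proton pump, was the highest at 671 CPM, followed by Psap, the precursor of the saposins that help enzymes reach sphingolipids, at 541 CPM and Atp6ap1, an accessory subunit of the pump, at 501 CPM. The aspartic protease Ctsd averaged 365 CPM, the tetraspanin Cd63 348 CPM and the membrane glycoprotein Lamp1 310 CPM. At the other end stood Gla, the alpha-galactosidase of globotriaosylceramide breakdown, at 7.16 CPM and Naglu, an enzyme of heparan sulfate breakdown, at 7.82 CPM. Atp6v0c, the proteolipid of the pump's membrane rotor, was not tested: it had 5 reads in all, 1 each in Het_B12 1, Het_B12 4, Het_PBS 1, Het_PBS 3 and WT_PBS 4, all under the floor. The annotation lists 2 processed pseudogene copies of Atp6v0c, and reads that map equally well to near-identical copies can be lost in counting, so its low count is uncertain.

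**Figure D1:**
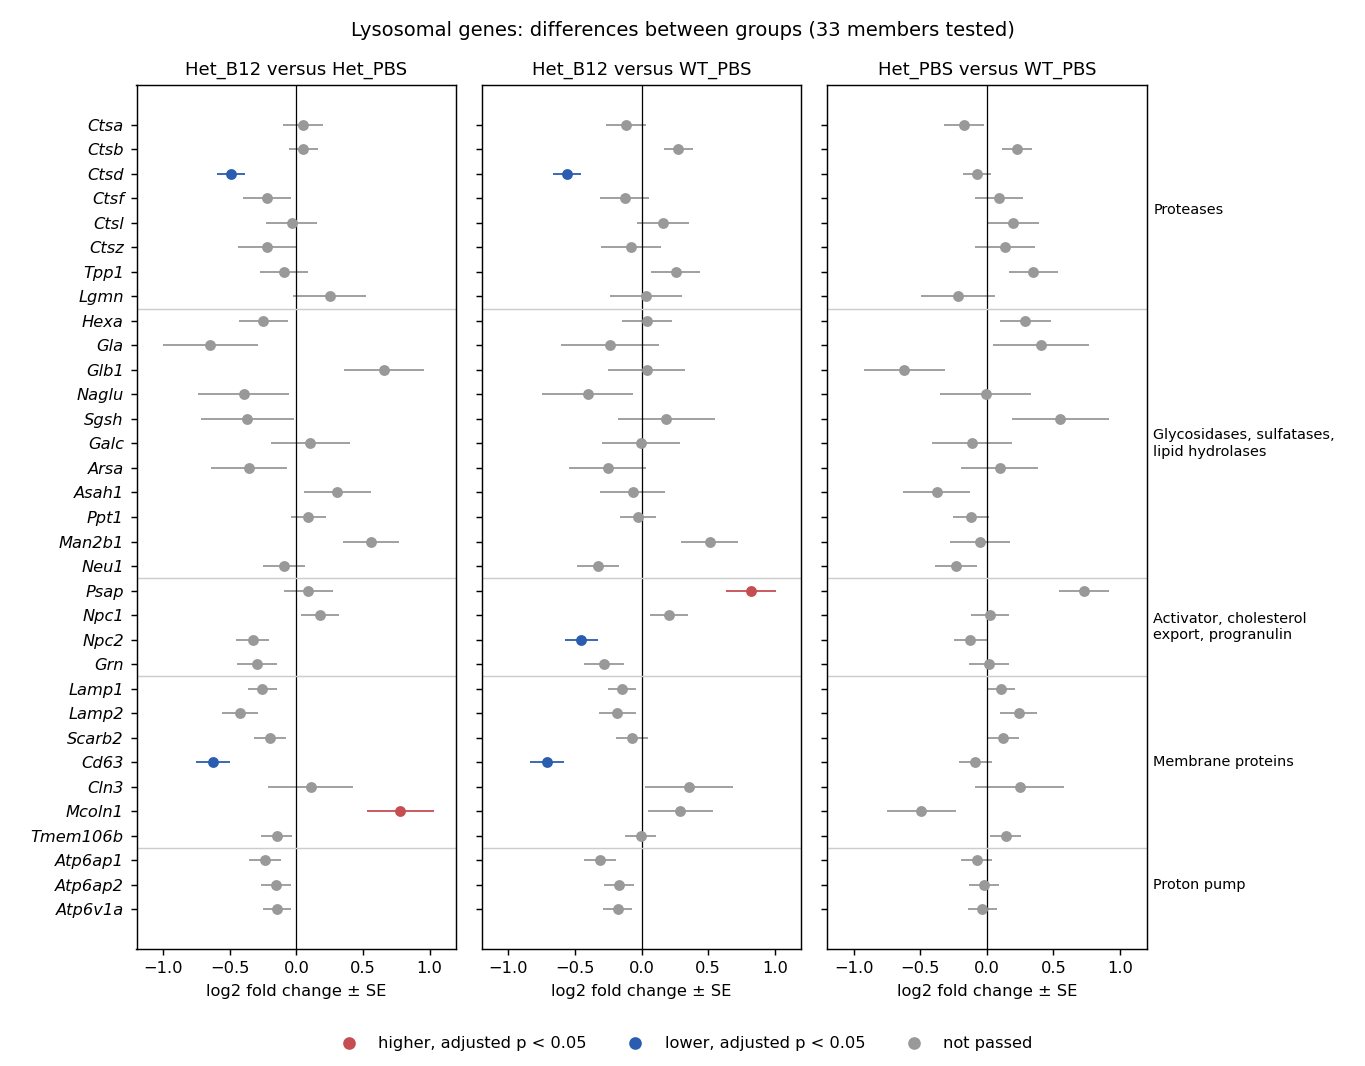
Log2 fold change ± SE (x axis) of each of the 33 tested lysosomal genes (y axis, ordered by role) in the 3 comparisons; red and blue points passed the test as higher and lower, grey points did not. Cd63 and Ctsd are blue at -0.62 and -0.49 in Het_B12 versus Het_PBS and again in Het_B12 versus WT_PBS, Mcoln1 is red only against Het_PBS and Psap only against WT_PBS, and no gene is coloured in Het_PBS versus WT_PBS.

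Vitamin B12 within the heterozygotes was the first question of the design. In Het_B12 against Het_PBS brains, 3 of the 33 tested lysosomal genes passed: Cd63 and Ctsd were lower and Mcoln1 was higher. That is 9.09% of the genes, beside 7.26% of all 11718 genes tested that passed in either direction, so the share of called genes was near the background. The single higher gene compares with 3.47% of all genes and the 2 lower ones with 3.79%. An unadjusted p under 0.05 was reached by 8 of the 33 genes (5 lower and 3 higher), beside 21.7% of all genes. Of the 33 genes, 21 had a log2 fold change below 0 (63.6%, beside 48.6% of all genes tested), with a median of -0.15 against 0.01 for all genes. Without TMM factors, when libraries are scaled by their totals, the median of all genes became 0.14 and that of the lysosomal genes -0.02. The distance between them stayed at -0.16, but a change of scaling moves all genes nearly alike and so cannot test that distance. All genes called then divided into 935 higher and 219 lower, instead of 407 higher and 444 lower. The groups did not overlap for 4 lysosomal genes, Cd63, Ctsd, Lamp1 and Lamp2, all lower in Het_B12, and groups that do not overlap were found for 7.83% of all genes (4.07% lower in Het_B12).

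Wild-type and heterozygous brains under saline addressed the effect of the genotype. None of the 33 genes passed in Het_PBS against WT_PBS, where 0% of all genes passed with edgeR's quasi-likelihood test, and DESeq2 and limma-voom also called 0 genes. Of all genes, 879 (7.5%) had an unadjusted p under 0.05, and of the lysosomal genes 1, Psap, did. Their median log2 fold change was 0.02, with 17 above and 16 below 0, beside 51.1% of all genes below 0. The groups overlapped for all 33 of them, and did not for 0.836% of all genes (0.444% lower in Het_PBS).

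Against wild types, Het_B12 brains had 4 lysosomal genes that passed of 33 (12.1%, beside 7.33% of all genes): Cd63, Ctsd and Npc2 were lower, beside 4.11% of all genes, and Psap was higher, beside 3.22%. An unadjusted p under 0.05 was reached by 8 of the 33, beside 21.6% of all genes. The median was -0.07, with 21 of 33 below 0, beside 49.2% of all genes. The groups did not overlap for Cd63 and Ctsd, beside 5.38% of all genes (2.94% lower in Het_B12). Scaled by library totals, that median turned to 0.07, with 0.15 for all genes. This comparison shares its Het_B12 libraries with the first and its WT_PBS libraries with the second, so the 3 sets of values are given side by side and are not independent.

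Promoter sequences are shown for 5 of these genes because the transcription factor TFEB and its relatives, which switch on lysosomal genes, bind an E-box with the core CACGTG. The stretches are the 250 bases before the annotated transcript start in RefSeq, build GRCm38.p6, read 5′ to 3′ along the gene, with CACGTG, and in Cln3 its extended form GTCACGTGAC, in capitals. Ctsd and Mcoln1 are shown as genes that passed in opposite directions, Lamp1 for its 4 matches, Cln3 as the gene with the extended form, and Cd63 as the gene with the smallest p in Het_B12 against Het_PBS and no match.
Ctsd (chr7:142387828-142388077, minus strand): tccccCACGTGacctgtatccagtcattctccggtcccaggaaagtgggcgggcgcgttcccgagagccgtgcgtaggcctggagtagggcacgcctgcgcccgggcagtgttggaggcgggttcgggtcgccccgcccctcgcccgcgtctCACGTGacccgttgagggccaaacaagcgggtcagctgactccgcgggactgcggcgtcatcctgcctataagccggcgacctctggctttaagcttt
Mcoln1 (chr8:3500269-3500518, plus strand): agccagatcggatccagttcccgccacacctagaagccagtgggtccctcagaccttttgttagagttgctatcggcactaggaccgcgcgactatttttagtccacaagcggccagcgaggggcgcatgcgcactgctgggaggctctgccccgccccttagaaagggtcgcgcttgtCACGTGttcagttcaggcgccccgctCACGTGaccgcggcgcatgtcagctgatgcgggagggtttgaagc
Lamp1 (chr8:13158911-13159160, plus strand): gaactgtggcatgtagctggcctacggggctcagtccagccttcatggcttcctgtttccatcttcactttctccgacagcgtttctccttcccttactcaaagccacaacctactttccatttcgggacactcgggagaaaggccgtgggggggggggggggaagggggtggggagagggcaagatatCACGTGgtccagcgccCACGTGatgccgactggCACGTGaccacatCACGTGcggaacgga
Cln3 (chr7:126583237-126583486, minus strand): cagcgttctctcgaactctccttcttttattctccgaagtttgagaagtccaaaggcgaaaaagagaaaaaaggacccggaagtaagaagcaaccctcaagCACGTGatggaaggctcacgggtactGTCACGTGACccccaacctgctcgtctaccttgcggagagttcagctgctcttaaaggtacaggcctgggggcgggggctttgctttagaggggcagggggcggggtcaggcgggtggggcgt
Cd63 (chr10:128909095-128909344, plus strand): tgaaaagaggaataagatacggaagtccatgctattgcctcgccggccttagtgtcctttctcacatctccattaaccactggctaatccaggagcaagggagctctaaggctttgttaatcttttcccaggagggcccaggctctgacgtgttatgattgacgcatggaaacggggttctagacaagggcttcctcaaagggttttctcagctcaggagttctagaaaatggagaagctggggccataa

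RefSeq promoter windows of 300 bases (250 before to 50 after the start) were matched by symbol for 31 of the 34 genes; Asah1, Ctsb and Npc1 had no entry. CACGTG reads the same on both strands and was found in 14 of the 31 (45.2%), beside 8.09% of the 27025 genes in the table. Among the genes with enough reads to be tested, the shares were 14 of 30 lysosomal genes (46.7%) and 12% of 9119 genes. The 10-base form GTCACGTGAC, which contains CACGTG and is also its own reverse complement, was found in Cln3 alone, 1 of 31 (3.23%), beside 0.37% of all genes. Lamp1 held 4 matches, at 61, 45, 28 and 15 bases before the start. Ctsd held 2, at 245 and 98 bases before it, and Mcoln1 held 2, at 71 and 45. Cd63, Lamp2, Psap and Npc2 held none in these windows. A gene was counted if any of its windows held the motif; by window the count was 14 of 37 (37.8%), beside 7.15% of 32851. Cln3 has another window in the table, further upstream, with 0 matches. For Cd63, Cln3, Ctsd and Mcoln1 the gene span in GENCODE M21, used for the gene coordinates given here, begins upstream of the RefSeq start shown. A match is a description of sequence, and no binding was measured. In Het_B12 against Het_PBS the 14 with CACGTG had a median log2 fold change of -0.18 (1 higher and 1 lower by the test) and the 16 without had -0.17 (0 higher and 1 lower).

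**Figure D2:**
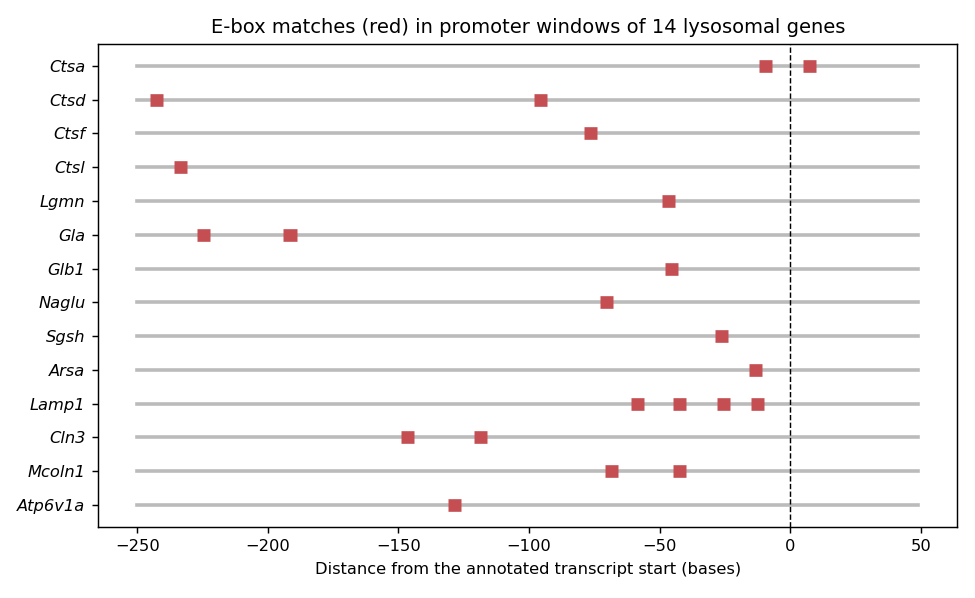
Position of each CACGTG match (red squares) relative to the annotated transcript start (dashed line; x axis in bases) in the promoter windows of the 14 lysosomal genes that hold at least 1. Of these, 13 have 1 or 2 matches and Lamp1 has 4, all within 61 bases before the start.

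Among the 8 proteases, 1 passed in Het_B12 against Het_PBS. Ctsd (ENSMUSG00000007891, GRCm38 chromosome 7, 142375911 to 142388038, minus strand), the main aspartic protease of the lysosome, had 270.0, 257, 271, 347 and 268 CPM in Het_B12, against 406, 382, 409, 425 and 359 CPM in Het_PBS and 443, 376, 370.5, 427 and 469 CPM in WT_PBS. Every Het_B12 library lay below every PBS library of either genotype, and the highest of them, Het_B12 4, was the nearest. The log2 fold change was -0.49 ± 0.11 (SE) against Het_PBS (0.713-fold; edgeR adjusted p = 0.00256) and -0.56 ± 0.11 against WT_PBS (adjusted p = 0.000681). Between the PBS groups it was -0.07 ± 0.10 (adjusted p = 0.918).

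The other 7 proteases did not pass in any comparison as fitted over all 15 libraries with TMM factors. Ctsb, a cysteine protease and the second most abundant of the class, averaged 238 ± 32.01 CPM (SD, n = 5 here and below) in Het_B12, 229 ± 10.02 CPM in Het_PBS and 196 ± 25.8 CPM in WT_PBS, with a log2 fold change of 0.05 ± 0.11 against Het_PBS and 0.28 ± 0.11 against WT_PBS (adjusted p = 0.134), where it passed with library totals. Ctsl, another cysteine protease, differed by -0.04 ± 0.19 between Het_B12 and Het_PBS. Tpp1, the tripeptidyl peptidase lost in a childhood form of Batten disease, differed by -0.09 ± 0.18 in the same comparison. Ctsa, the protective protein that holds neuraminidase and beta-galactosidase in a complex, differed by 0.05 ± 0.15. Lgmn, an asparaginyl endopeptidase that matures cathepsins, differed by 0.25 ± 0.27, Ctsf by -0.22 ± 0.18 and Ctsz by -0.22 ± 0.22. The gene spans of Ctsa, Ctsb and Ctsz overlap a gene on the opposite strand with more than 10% as many reads. As no strand setting is stated, their counts may be affected by the partner gene, in a direction not known. The partner of Ctsz, Nelfcd, had 3506 reads, beside 893 for Ctsz. Summed over the class, proteases stood at 696 to 753 CPM in Het_B12, 830.1 to 863 CPM in Het_PBS and 756 to 901 CPM in WT_PBS. Ctsd made up the largest share of that sum. Scaled by library totals, the proteases of Het_B12 stood at 731 to 799 CPM. That range overlapped those of Het_PBS, 794 to 846 CPM, and WT_PBS, 745 to 874 CPM.

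The 7 membrane proteins held the gene with the smallest p of the set in each comparison with Het_B12. Cd63 (ENSMUSG00000025351, GRCm38 chromosome 10, 128900989 to 128912822, plus strand), a tetraspanin of late endosomes, lysosomes and exosomes, had 256, 278, 213.2, 251 and 252 CPM in Het_B12, against 326, 443, 381, 391 and 387 CPM in Het_PBS and 358, 450.0, 334, 321 and 581 CPM in WT_PBS. The highest Het_B12 library stayed below the lowest PBS library, and WT_PBS 5 was the highest of all. The log2 fold change was -0.62 ± 0.13 against Het_PBS (0.648-fold; edgeR adjusted p = 0.00155) and -0.71 ± 0.13 against WT_PBS (adjusted p = 0.000442), and Het_PBS differed from WT_PBS by -0.08 ± 0.13 (adjusted p = 0.924). Cd63 and Ctsd passed in both comparisons in each of the 15 fits that left out 1 library and in all 10 other alternatives.

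Mcoln1 (ENSMUSG00000004567, GRCm38 chromosome 8, 3500457 to 3515232, plus strand), the calcium and cation channel of lysosomes whose loss causes mucolipidosis, moved the other way. It had 25.5, 22.9, 19.7, 23.0 and 24.1 CPM in Het_B12, against 9.83, 21.9, 13.4, 12.8 and 7.77 CPM in Het_PBS and 14.8, 13.3, 25.1, 13.8 and 27.2 CPM in WT_PBS. The Het_B12 libraries lay close together, Het_PBS 2 lay within their range, and WT_PBS fell into 3 low and 2 high libraries. The log2 fold change was 0.78 ± 0.25 against Het_PBS, with an edgeR adjusted p of 0.0496 that only just passed. It did not pass in 10 of the 15 fits that left out 1 library: without any Het_B12 library, without Het_PBS 1, 3, 4 or 5, or without WT_PBS 1, with adjusted p between 0.0535 and 0.120. Het_B12 against WT_PBS gave 0.29 ± 0.25 (adjusted p = 0.528) and Het_PBS against WT_PBS -0.49 ± 0.26 (adjusted p = 0.678).

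**Figure D3:**
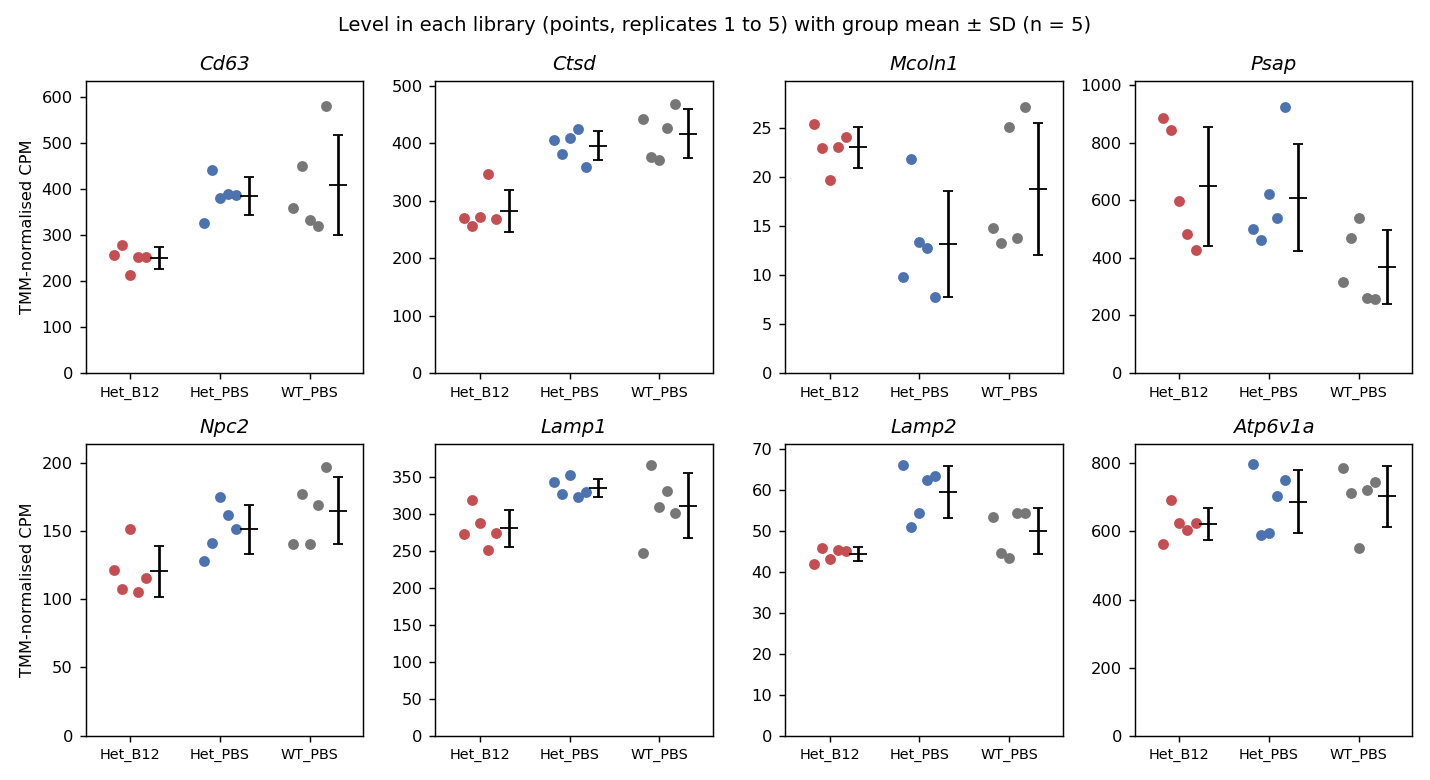
TMM-normalised CPM (y axis, from 0) of 8 lysosomal genes in each library (points, replicates 1 to 5 from left to right) of Het_B12, Het_PBS and WT_PBS, with the group mean and SD (bars, n = 5). All Het_B12 points lie below all PBS points for Cd63 and Ctsd, while Psap spans 427 to 885 CPM within Het_B12 and 461 to 922 CPM within Het_PBS.

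Lamp1 and Lamp2, the heavily glycosylated proteins that make up most of the lysosomal membrane coat, were singled out after their values were seen, because their Het_B12 and Het_PBS libraries did not overlap. Lamp1 had 273, 320.0, 288, 252 and 274.1 CPM in Het_B12, against 344, 328, 353, 323 and 331 CPM in Het_PBS and 247, 367, 310.3, 332 and 302 CPM in WT_PBS. Lamp2 had 41.8, 45.9, 43.1, 45.3 and 45.0 CPM in Het_B12, against 66.0, 51.0, 54.4, 62.4 and 63.4 CPM in Het_PBS and 53.4, 44.5, 43.2, 54.2 and 54.3 CPM in WT_PBS. For both genes WT_PBS libraries reached into or below the Het_B12 range. The differences from Het_PBS were -0.25 ± 0.11 for Lamp1 (adjusted p = 0.141) and -0.42 ± 0.14 for Lamp2 (adjusted p = 0.0530), and neither passed. Lamp2 did pass with DESeq2, with DESeq2's size factors, in the fit of only the 2 groups compared, and without WT_PBS 3 or Het_PBS 2.

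The remaining membrane proteins did not pass in any comparison. Scarb2, the receptor that carries glucocerebrosidase to lysosomes, differed by -0.20 ± 0.12 between Het_B12 and Het_PBS and Tmem106b, a lysosomal protein linked to frontotemporal dementia, by -0.15 ± 0.11. Cln3, the membrane protein lost in juvenile Batten disease, differed by 0.11 ± 0.32, with single libraries between 4.19 CPM in Het_PBS 5 and 18.6 CPM in Het_PBS 3. Summed over the class, membrane proteins stood at 829 to 943 CPM in Het_B12, 1028 to 1139 CPM in Het_PBS and 959 to 1244 CPM in WT_PBS. Scaled by library totals, the Het_B12 range of 875 to 1020 CPM overlapped those of Het_PBS, 1008 to 1117 CPM, and WT_PBS, 919 to 1207 CPM.

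Psap was the member that differed most between the saline groups, and it did so without passing. Psap (ENSMUSG00000004207, GRCm38 chromosome 10, 60277627 to 60302597, plus strand) had 885, 843, 598, 483 and 427 CPM in Het_B12, against 501, 461, 620, 539 and 922 CPM in Het_PBS and 315, 468, 539, 261 and 257 CPM in WT_PBS. Het_B12 1, Het_B12 2 and Het_PBS 5 were the highest, WT_PBS 4 and WT_PBS 5 the lowest, and each pair of groups overlapped. Het_PBS differed from WT_PBS by 0.73 ± 0.19 on the log2 scale (1.66-fold; edgeR adjusted p = 0.387, with the 12th smallest p of all genes). It passed there in 1 alternative, with no filter on low counts (adjusted p = 4.07e-07), and in none of the 15 fits without 1 library. Het_B12 differed from WT_PBS by 0.82 ± 0.19 (1.77-fold, adjusted p = 0.00505) and passed, except with DESeq2 (adjusted p = 0.0630), and from Het_PBS by 0.09 ± 0.19 (adjusted p = 0.832).

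Npc2 (ENSMUSG00000021242, GRCm38 chromosome 12, 84754562 to 84773152, minus strand), the soluble protein that hands cholesterol to Npc1 for export, had 122, 108, 152, 106 and 115 CPM in Het_B12, against 128, 141, 175, 161 and 152 CPM in Het_PBS and 140.4, 178, 141, 169 and 197 CPM in WT_PBS. Het_B12 3 lay within the range of both PBS groups, and the other 4 Het_B12 libraries lay below every PBS library. Npc2 was lower against WT_PBS at -0.45 ± 0.12 (0.730-fold; edgeR adjusted p = 0.0199), a call that was lost without WT_PBS 5 (adjusted p = 0.0931), Het_B12 2 (0.0644) or Het_B12 4 (0.0569) and with library totals (0.107). Against Het_PBS it stood at -0.33 ± 0.12 (adjusted p = 0.104), and it passed there without Het_B12 3 (adjusted p = 0.0419). Its membrane partner Npc1 differed by 0.18 ± 0.14 between Het_B12 and Het_PBS and by 0.21 ± 0.14 between Het_B12 and WT_PBS. Grn, which encodes progranulin, averaged 84.9 ± 8.30 CPM in Het_B12, 103 ± 27.6 CPM in Het_PBS and 102 ± 17.9 CPM in WT_PBS. Its differences from Het_PBS, -0.30 ± 0.15, and from WT_PBS, -0.28 ± 0.15, did not pass, except against Het_PBS without WT_PBS 3 and Het_PBS 5 together. The gene overlaps an opposite-strand gene, Fam171a2, with more reads than its own.

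None of the 11 glycosidases, sulfatases and lipid hydrolases passed in any comparison as fitted over all 15 libraries with TMM factors. This was also the class with the lowest summed level, with 7 of its 11 genes under 20 CPM. In Het_B12 against Het_PBS, 6 of 11 were below 0 and the range ran from -0.65 ± 0.36 for Gla to 0.66 ± 0.30 for Glb1, the lysosomal beta-galactosidase. Man2b1, the alpha-mannosidase, came nearest to passing at 0.56 ± 0.21 (adjusted p = 0.104). It did pass there with library totals, and against WT_PBS (0.51 ± 0.21) without WT_PBS 3, alone or together with Het_PBS 5. It averaged 33.6 ± 8.07 CPM in Het_B12, 22.6 ± 3.74 CPM in Het_PBS and 23.8 ± 8.56 CPM in WT_PBS. Glb1 averaged 11.8 ± 3.32 CPM in Het_B12, 7.38 ± 2.12 CPM in Het_PBS and 11.6 ± 2.78 CPM in WT_PBS. Hexa, the alpha subunit of beta-hexosaminidase that is lost in Tay-Sachs disease, differed by -0.25 ± 0.19, Galc, the galactosylceramidase of myelin turnover, by 0.11 ± 0.29, and Asah1, acid ceramidase, by 0.31 ± 0.25. Ppt1, a palmitoyl thioesterase, differed by 0.09 ± 0.13 and Neu1, the lysosomal sialidase, by -0.09 ± 0.16. The heparan sulfate enzymes Naglu and Sgsh stood at -0.40 ± 0.34 and -0.37 ± 0.35, and Arsa, the sulfatase lost in metachromatic leukodystrophy, at -0.35 ± 0.28. Arsa and Ppt1 overlap opposite-strand genes with 52.4% and 76.7% as many reads. Summed over the class, the level was 221 to 280 CPM in Het_B12, 238 to 252 CPM in Het_PBS and 235 to 284 CPM in WT_PBS.

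For the proton pump, the 3 tested genes were all below 0 in both comparisons with Het_B12, and none passed. Atp6v1a (ENSMUSG00000052459, GRCm38 chromosome 16, 44085402 to 44139705, minus strand) had 562, 693, 625, 603 and 624 CPM in Het_B12, against 797, 591, 595, 705 and 751 CPM in Het_PBS and 787, 712, 552, 721 and 747 CPM in WT_PBS. The 3 groups overlapped. Its log2 fold change was -0.15 ± 0.11 against Het_PBS (adjusted p = 0.471) and -0.18 ± 0.11 against WT_PBS (adjusted p = 0.342). Atp6ap1 stood at -0.23 ± 0.12 against Het_PBS (adjusted p = 0.248) and -0.31 ± 0.12 against WT_PBS (adjusted p = 0.110), and Atp6ap2, the accessory subunit also called the prorenin receptor, at -0.15 ± 0.11 and -0.17 ± 0.11. Summed over the 4 pump genes, levels were 1332 ± 65.6 CPM in Het_B12, 1505 ± 95.1 CPM in Het_PBS and 1554 ± 151 CPM in WT_PBS. Scaled by library totals, the sums lay closer together, at 1419 ± 79.4 CPM in Het_B12, 1463 ± 70.1 CPM in Het_PBS and 1500 ± 140 CPM in WT_PBS.

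**Figure D4:**
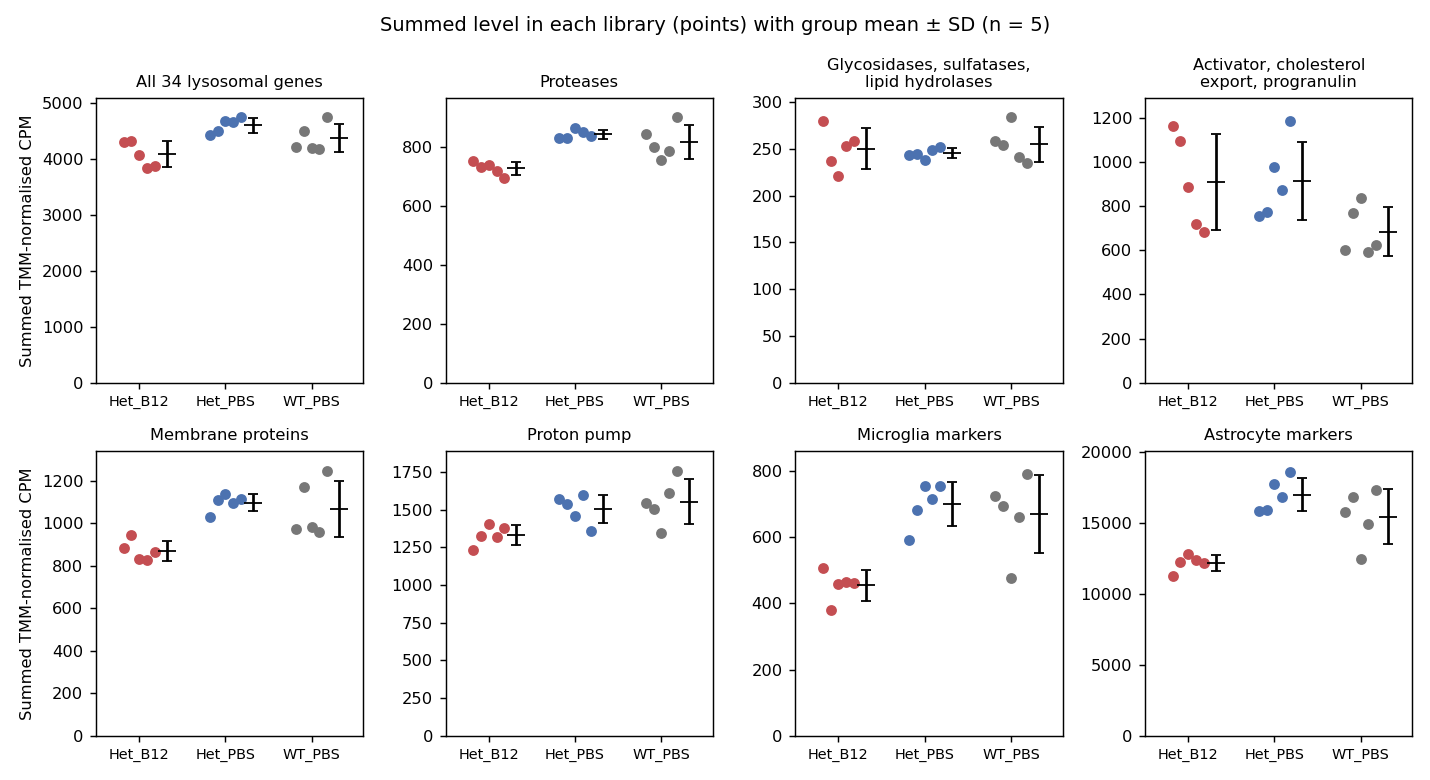
Summed TMM-normalised CPM (y axis, from 0) in each library (points) of all 34 lysosomal genes, of each of the 5 roles, and of the microglial and astrocyte marker lists, with group mean and SD (bars, n = 5) for Het_B12, Het_PBS and WT_PBS. The proteases and the membrane proteins of Het_B12 lie below both PBS groups, though they overlap both when libraries are scaled by totals. The microglial markers of Het_B12 lie below all PBS libraries but WT_PBS 3, at 478 CPM.

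The sum of all 34 genes was 4089 ± 231 CPM in Het_B12, 4604 ± 137 CPM in Het_PBS and 4375 ± 249 CPM in WT_PBS. Scaled by library totals the order of Het_B12 and WT_PBS turned round, at 4354 ± 281 CPM in Het_B12, 4480 ± 189 CPM in Het_PBS and 4226 ± 242 CPM in WT_PBS. The median Pearson r over the 528 pairs of genes was 0.01 over the 15 libraries and -0.01 after group means were removed. This describes libraries that share their depth and scaling. No such value was computed for other genes, and the precision of the 10 tested genes under 20 CPM is limited.

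**Figure D5:**
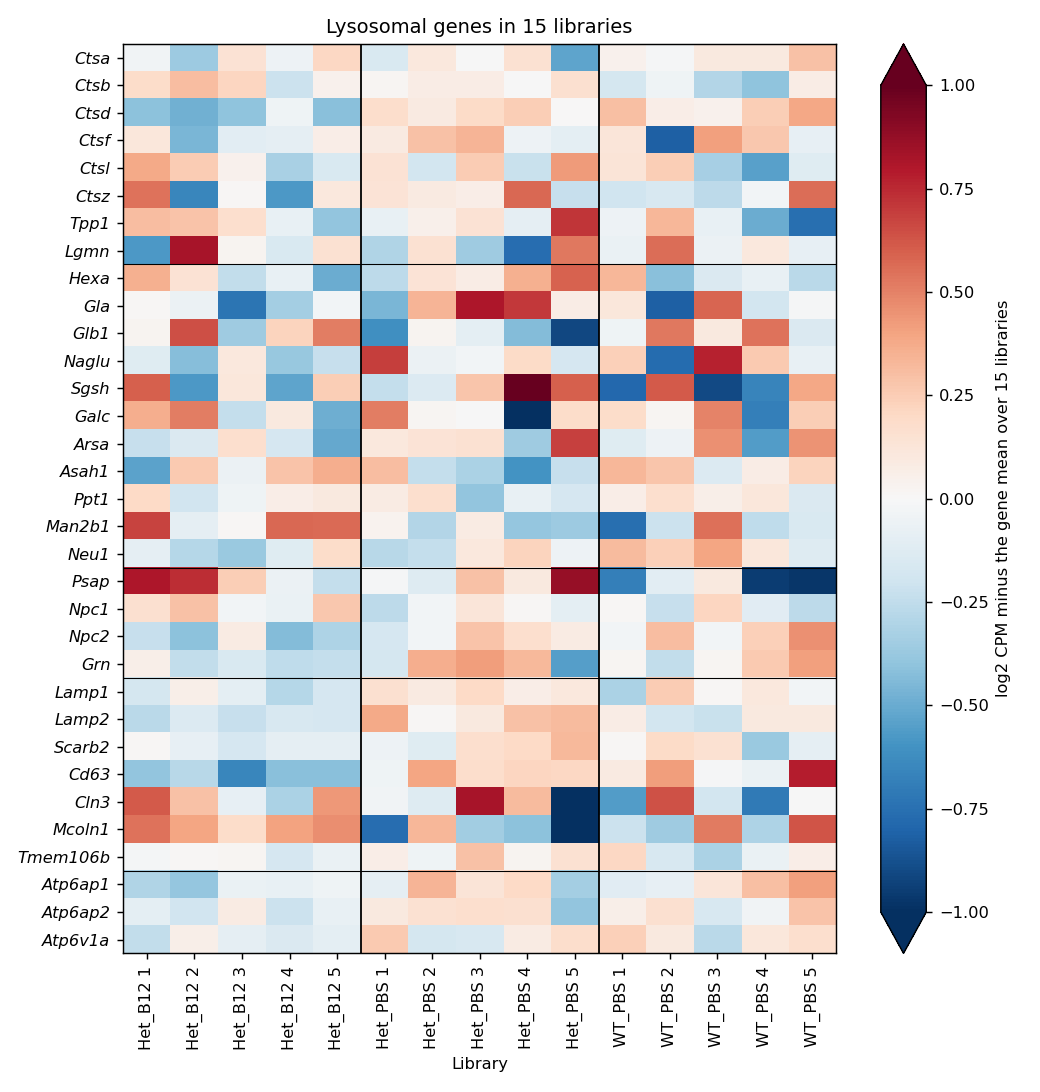
Log2 CPM of the 33 tested lysosomal genes (y axis, by role) in each library (x axis) minus the gene's mean over the 15 libraries; colours are capped at -1 and 1. Cd63 and Ctsd are blue in the Het_B12 libraries, palest for Ctsd in Het_B12 4, Mcoln1 is red in all 5 Het_B12 libraries, and Psap is strongest in Het_B12 1, Het_B12 2 and Het_PBS 5.

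Markers of cell types were set beside these results. The 19 microglial markers, which have 20 lines of counts, all included here, summed to 380 to 508 CPM in Het_B12, 592 to 756 CPM in Het_PBS and 478 to 792 CPM in WT_PBS. In Het_B12 against Het_PBS the complement genes C1qa and C1qb and the receptor genes Cx3cr1 and Fcer1g stood at -1.003, -0.80, -0.57 and -1.22 on the log2 scale and passed. The 16 astrocyte markers summed to 11221 to 12778 CPM in Het_B12, 15841 to 18567 CPM in Het_PBS and 12426 to 17344 CPM in WT_PBS, with S100b at -0.82 and Ndrg2 at -0.78. Meningeal and fibroblast markers were lower for 4 of 9 tested, oligodendrocyte markers for 3 of 11 and leukocyte markers for 3 of 5, beside 3.79% of all genes. Of 14 neuronal markers 1 was higher, and that share of 7.14% was near the 7.26% of all genes that passed in either direction. Endothelial markers summed to 204.4 to 295 CPM in Het_B12, 101 to 145 CPM in Het_PBS and 91.7 to 147 CPM in WT_PBS. In each comparison with Het_B12, 1 of the 11 tested was below 0, at -1.48 against Het_PBS and -1.66 against WT_PBS. It did not pass in either. None of the markers on the 7 lists was at 0 in every library. WT_PBS 3 had the lowest marker sums of its group, 478 CPM for microglia and 12426 CPM for astrocytes, both within the Het_B12 range. Its endothelial sum of 117 CPM lay below the Het_B12 range. Its Ctsd of 370.5 CPM was the lowest and its Cd63 of 334 CPM the second lowest of the WT_PBS libraries. Both lay above every Het_B12 value, while its Npc2 of 141 CPM lay within the Het_B12 range. These are values of 1 library and carry no test. In Het_B12 against WT_PBS, 6 microglial and 8 astrocyte markers were lower and 6 endothelial markers were higher. Of all genes tested there, 4.11% were lower and 3.22% higher. The part of these cell types in the lower Cd63, Ctsd and Npc2 was not tested.

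Other genes of the lysosomal pathway, written as 6 lists beside the 34, are counted beside the 7.26% of all genes that passed in Het_B12 against Het_PBS. In Het_B12 against Het_PBS, 2 of 32 tested hydrolases passed and both were lower. Ctss, a cysteine protease of phagocytes, averaged 59.4 ± 4.84 CPM in Het_B12 and 129 ± 36.0 CPM in Het_PBS (log2 fold change -1.12 ± 0.16; edgeR adjusted p = 2.14e-05). Fuca1, the alpha-fucosidase, stood at -0.56 ± 0.15 (adjusted p = 0.0161), while Gm2a, the activator of ganglioside breakdown, at -0.40 and Arsb at 0.55 did not pass. Of 22 membrane proteins and transporters, the lipid transporter Abca2 was higher at 0.71 ± 0.15 (adjusted p = 0.00217) and Laptm4a lower at -0.39 ± 0.11 (adjusted p = 0.0250); Slc38a9 at 0.63 and Laptm5 at -0.46 did not pass.

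Of 14 further proton pump subunits, 1 passed, Atp6v1d of the rotor stalk at -0.39 ± 0.10 (edgeR adjusted p = 0.0139). Atp6v1f, Atp6v0e and Atp6v1e1 stood at -0.31, -0.51 and -0.22 without passing. Against WT_PBS, Atp6v1d at -0.34 and Atp6v1f at -0.35 were lower and Atp6v1b2 was higher at 0.42 ± 0.13. Of 20 genes that deliver enzymes to lysosomes, Vps35, the core of the retromer, was lower at -0.57 ± 0.14 (adjusted p = 0.0105), and Vps41, Vps18 and Vps11 at -0.28, 0.59 and 0.50 did not pass. The mannose phosphate receptor gene M6pr was higher in Het_B12 than in WT_PBS at 0.92 ± 0.24 (adjusted p = 0.0166).

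Among 20 regulators, Rptor, a subunit of the growth-promoting kinase complex that sits on lysosomes, was higher at 0.81 ± 0.23 (edgeR adjusted p = 0.0264) and Lamtor4, part of its lysosomal anchor, lower at -0.55 ± 0.15 (adjusted p = 0.0150), while Zkscan3 at 0.57 and Mtor at 0.43 did not pass. Named for their role after values were seen, the E-box factors Tfeb, Tfe3 and Mitf stood at 0.71 ± 0.42, 0.38 ± 0.21 and -0.03 ± 0.26, and none passed. Of 20 autophagy genes, 0 passed against Het_PBS; the smallest adjusted p was 0.0829, for Atg16l1 at 0.65, and Atg9a, Atg13 and Gabarapl2 stood at 0.47, 0.30 and -0.30. The pair that exports vitamin B12 from the lysosome, likewise named after values were seen, did not pass either: Lmbrd1 stood at 0.06 ± 0.11 and Abcd4 at 0.46 ± 0.36 in Het_B12 against Het_PBS. In Het_PBS against WT_PBS, 0 genes of the 6 lists passed. In Het_B12 against WT_PBS the other genes that passed were Ctss at -0.76, Abca2 at 0.53, Vps35 at -0.63, Rraga at 0.61, Lamtor2 at -0.94 and Ulk1 at 0.70.

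By their log2 CPM over the 15 libraries, the genes most like Psap among 8902 genes at a mean of at least 10 CPM were Sult4a1 (Pearson r = 0.94), Gas6 (0.93), Paxip1 (0.92), Socs7 (0.92) and Scamp1 (0.91). Those most like Cd63 were Rpl36a (0.93), Rab3gap1 (0.92), Rplp1 (0.91), Tmem256 (0.91) and Ndufb8 (0.88). These are descriptions over libraries that share groups, depth and scaling, and they carry no test.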

How the data were processed

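Brain RNA in 15 libraries (5 Het_B12, 5 Het_PBS, 5 WT_PBS) was read with the QuantSeq 3′ protocol. The deposited values are whole-number read counts per gene; STAR, HTSeq and edgeR and the build mm10 are named, without versions, per the submitters' processing notes. Per the labels' protocols RNA came from Qiagen RNeasy kits, while the design text names Qiazol on whole brains. The sources used here give neither the annotation nor the strand setting.

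The members and gene lists were chosen with earlier results of these data known. Counts went into edgeR 4.0.16 (R 4.3.3): filterByExpr kept 11718 of 30386 genes, 9918 genes being at 0 in every library, with TMM factors, 1 fit over all 15 libraries (12 residual degrees of freedom) and glmQLFTest for each of 3 comparisons. The common biological coefficient of variation was 0.181. A gene passed at an adjusted p (Benjamini-Hochberg over all genes tested) under 0.05, and the SE is the log2 fold change divided by the square root of F. The floor of 3 reads covers counting error only. Named genes were those that passed, the most abundant gene, Atp6v0c, and in each other list the 4 with the smallest p in Het_B12 against Het_PBS. The promoter windows came from RefSeq tables, and overlaps and coordinates from GENCODE M21. The scripts were tested on simulated data. Alternatives were other scalings and filters, DESeq2 1.42.0, limma-voom 3.58.1, a fit of 2 groups, a replicate block and each library left out.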

Additional observations from a re-analysis of the deposited data

Results flagged for a closer look

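Ctsd in Het_B12 4 stood at 347 CPM, above the other Het_B12 libraries at 257 to 271 CPM, and its gap to the nearest of them was 0.841 of the group's range, over Dixon's 95% critical value for 5 samples. It still lay below every PBS library. Among 27 sets of 5 libraries checked, this was the single one past that limit, and chance passes it in about 1 of 20.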

How the results depend on the processing

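Cd63 and Ctsd passed in both comparisons with Het_B12 in all 15 fits without 1 library and all 10 other alternatives, with log2 fold changes without 1 library of -0.68 to -0.57 and -0.57 to -0.46 against Het_PBS. Mcoln1 against Het_PBS also missed the threshold with DESeq2's size factors (adjusted p = 0.0519), under the replicate block (0.0577), without WT_PBS 3 and Het_PBS 5 together (0.102) and without Het_PBS 5 and Het_B12 1 together (0.204), and was not tested at a mean count of 50. Lysosomal genes called without 1 library numbered 2 to 4 in Het_B12 versus Het_PBS, 0 in Het_PBS versus WT_PBS and 3 to 5 in Het_B12 versus WT_PBS. With no filter on low counts, 1 lysosomal gene (Psap) and 40 genes in all passed in Het_PBS versus WT_PBS.

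Without 1 library, all genes called ran from 549 (without Het_B12 1) to 1050 in Het_B12 versus Het_PBS, from 0 to 14 in Het_PBS versus WT_PBS, and from 449 (without WT_PBS 5) to 1268 in Het_B12 versus WT_PBS, with 477 without WT_PBS 1, 515 without Het_B12 1 and 513 without Het_B12 2. Without Het_PBS 5 and Het_B12 1 together they were 437 in the first comparison and 2 in the second; without WT_PBS 3 and Het_PBS 5 together they were 1 in the second and 1390 in the third. The summed level of the 34 genes in Het_B12 was 4354 CPM with library totals and 4089 CPM as reported, and promoters with a match numbered 1 with the 10-base form and 14 with CACGTG. The cause of these differences was not tested, apart from the shorter motif's being part of the longer.

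Replicate numbers are shared between groups, but deviations of same-numbered libraries correlated at -0.093 to 0.106 only, so the numbers name libraries. With them as a replicate block, the calls were 2, 0 and 4 lysosomal genes and 830, 0 and 800 genes in all, in the order of comparisons above. No value that passed changed sign. Of the others, the lysosomal genes' median turned to 0.07 with library totals in Het_B12 versus WT_PBS, and in Het_PBS versus WT_PBS to -0.03 without WT_PBS 2 and -0.02 without Het_PBS 3. Without 1 library, Psap in Het_B12 versus Het_PBS ran from -0.05 to 0.29, and in Het_PBS versus WT_PBS Cd63 from -0.16 to 0.08 and Atp6v1a from -0.10 to 0.02. The precision of genes under 20 CPM is limited by totals of 1683258 to 2746122 reads.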
